A study of Mus musculus with 4 samples.

Results

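The genes described are 10 transcripts that mark radial glia, the stem cells of the embryonic cortex, and the astroglia that later arise from them: Nes, Vim, Fabp7, Slc1a3, Hopx, Aldoc, Dbi, Ptn, Aldh1l1 and Sparcl1. They were chosen by gene symbol, and all 10 were found among the 40630 genes of the deposited table. RNA came from cortex of E13.5 embryos on a C57BL/6 background, at a stage when radial glia produce neurons. One group held 2 libraries with the genotype Upf2fl/fl Emx1-Cre+, called cKO-labelled (conditional knockout; replicates 4 and 5), and the other 2 libraries with the genotype Upf2fl/+ Emx1-Cre- (control; replicates 8 and 9). Every library carried at least 1 floxed Upf2 allele, and Cre and the second floxed allele differ together between the groups. Emx1-Cre acts in the dorsal telencephalon, so blood vessels, meninges and ventrally derived cells in the same dissection are not its targets. The comparison addresses how transcripts of the cortex differ when Upf2, an adaptor of nonsense-mediated mRNA decay (NMD), is removed from cortical progenitors.

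Radial glia span the cortical wall from the ventricle to the pial surface, divide at the ventricle, and guide migrating neurons along their fibres. Their fibres are built of intermediate filaments, and the cells take up glutamate, bind fatty acids and secrete growth factors, functions that astrocytes keep. Near the end of neurogenesis radial glia turn to making astrocytes, and the transcripts studied here differ in how early they appear on that path.

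Values are TPM, a transcript level scaled to transcript length and library depth, so levels of different genes can be set side by side. Libraries held 33537843 to 41680052 recovered reads. Upf2 over the whole gene was at 27.8 and 42.2 TPM (cKO-labelled) and at 23.7 and 41.3 TPM (control), so the groups overlapped (log2 fold change 0.13, limma adjusted p = 0.853), although a whole-gene value does not check the loss of a floxed segment. Of 15107 genes tested, 8.14% passed at an adjusted p under 0.05 (limma, Benjamini-Hochberg), 2.9% higher and 5.24% lower in the cKO-labelled group. The groups did not overlap for 57.6% of them (23.5% higher, 34.1% lower), and 22.8% had an unadjusted p under 0.05. Control replicate 9 stood apart from control replicate 8, with a difference that followed the GC content of the gene (Spearman correlation -0.76 across 15100 genes, which are not independent replicates). The fold change between the groups also followed GC content (0.54), as did cKO-labelled replicate 5 minus replicate 4 (-0.32). The median log2 fold change went from -0.54 in the lowest of 5 GC groups to 0.36 in the highest. The labels do not say that libraries are separate embryos, so p-values measure the spread between these samples. With 2 samples a side, exact permutation reaches p = 0.333 at the smallest, and the p-values given are limma's, from a spread pooled over genes.

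The groups overlapped for 6 of the genes and did not overlap for the other 4. Nes, Vim, Fabp7, Dbi, Ptn and Slc1a3 had log2 fold changes between -0.35 and 0.16, and none passed the test. Hopx, Aldoc and Sparcl1 fell, by 1.89, 1.53 and 1.51 on the log2 scale, and Aldh1l1 rose by 1.77. These 4, which are also the genes with an unadjusted p under 0.05, stand against 8.14% of tested genes called, 57.6% without overlap (1 here against 23.5% higher, 3 against 34.1% lower) and 22.8% at that unadjusted p. The list itself was not tested. Over the 10 genes the median log2 fold change was -0.19, beside -0.16 for all tested genes. In bulk tissue, fewer cells of a type and less RNA per cell cannot be told apart. All 10 genes passed the filter on low values, a mean of at least 1 TPM.

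**Figure D1:**
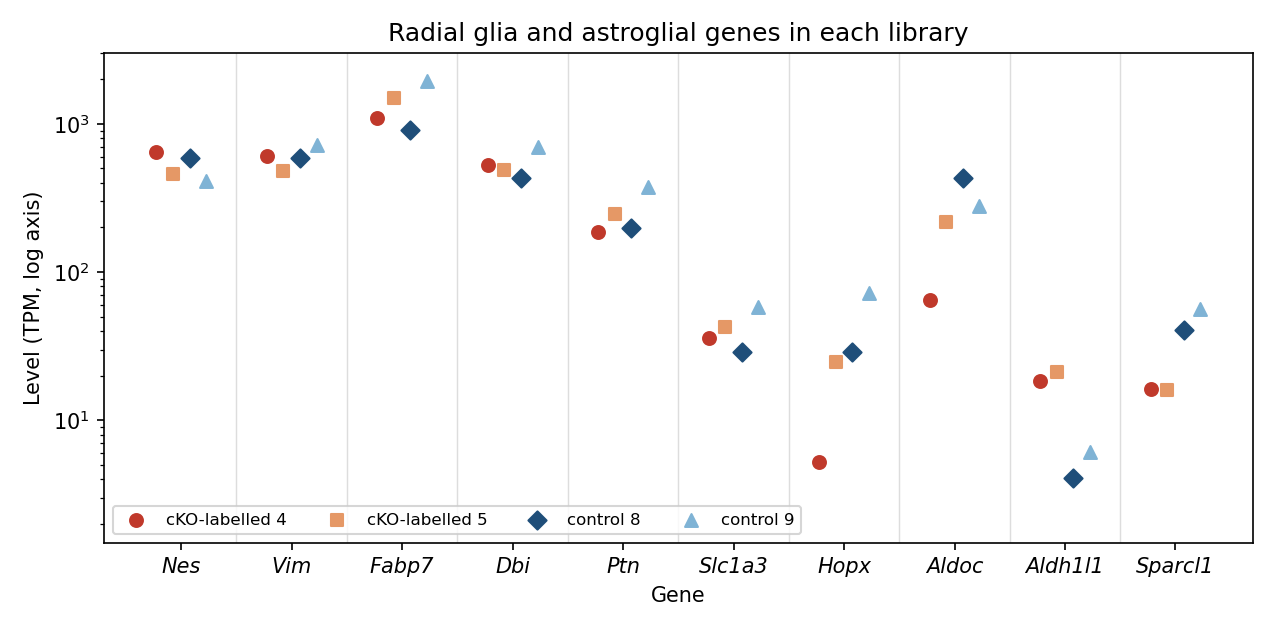
TPM (log axis) of the 10 genes in each of the 4 libraries; each symbol is 1 library. The 6 genes on the left overlap between groups, while for Hopx, Aldoc and Sparcl1 both controls lie above both cKO-labelled libraries and for Aldh1l1 (4.11 and 6.15 TPM in controls) both lie below.

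Nes and Vim encode the intermediate filament proteins nestin and vimentin of the radial fibre. Nes (ENSMUSG00000004891.16; GRCm38 chromosome 3, 87971078 to 87980451) stood at 646 TPM in cKO-labelled replicate 4, 460 TPM in cKO-labelled replicate 5, 584 TPM in control replicate 8 and 411 TPM in control replicate 9. The cKO-labelled replicate 4 was the highest and control replicate 9 the lowest, and the pairs interleaved (log2 fold change 0.16 ± 0.36 (SE), 95% interval -0.56 to 0.87, limma adjusted p = 0.819). Vim (ENSMUSG00000026728.9; chromosome 2, 13573927 to 13582826) was at 603 and 477 TPM against 586 and 716 TPM, with the highest level in control replicate 9 and the lowest in cKO-labelled replicate 5. Its log2 fold change was -0.27 ± 0.37 (SE), with a 95% interval of -0.99 to 0.45. Vim is also made by mesenchymal and vascular cells. The highest library exceeded the lowest 1.57 times for Nes and 1.50 times for Vim, the narrowest ranges of the 10 genes.

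Fabp7 and Dbi encode small lipid-binding proteins. FABP7, the brain fatty acid binding protein, is a classical radial glia marker, and DBI binds acyl-CoA esters and is cut into peptides that act on GABA-A receptors. Fabp7 (ENSMUSG00000019874.11; chromosome 10, 57784881 to 57788450) was the most abundant of the 10 genes, with cKO-labelled levels of 1092 and 1503 TPM and control levels of 907 and 1940 TPM. Both cKO-labelled values lay between the 2 controls (log2 fold change -0.05 ± 0.39 (SE), 95% interval -0.82 to 0.72). Against control replicate 8 alone the cKO-labelled libraries were 0.27 and 0.73 higher on the log2 scale, and against control replicate 9 alone they differed by -0.83 and -0.37. Dbi (ENSMUSG00000026385.16; chromosome 1, 120113280 to 120121078) was at 528 and 487 TPM against 428 and 700 TPM, again between the controls. Its log2 fold change was -0.11 ± 0.36 (SE), with a 95% interval of -0.82 to 0.60.

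Slc1a3 encodes the glutamate transporter GLAST, which radial glia and astrocytes use to clear glutamate, and Ptn encodes pleiotrophin, a secreted heparin-binding growth factor. Slc1a3 (ENSMUSG00000005360.14; chromosome 15, 8634124 to 8710764) had cKO-labelled levels of 36.1 and 42.5 TPM, enclosed by the control levels of 28.8 and 58.4 TPM. Its log2 fold change was -0.07 ± 0.35 (SE), with a 95% interval of -0.76 to 0.63. Ptn (ENSMUSG00000029838.11; chromosome 6, 36714929 to 36810220) was at 185 and 247 TPM against 199 and 372 TPM, with cKO-labelled replicate 4 the lowest and control replicate 9 the highest (log2 fold change -0.35 ± 0.35 (SE), 95% interval -1.03 to 0.34). These intervals do not exclude changes of either sign for any of the 6 genes. They rest on the pooled spread, and each of the 6 turned sign when the GC trend was removed, when control replicate 9 was left out, or in both cases (the plot of fold changes). Without control replicate 8, Slc1a3, Dbi and Ptn passed as lower (-0.56, -0.47 and -0.80; limma adjusted p = 0.0334, 0.046 and 0.0112), 3 calls that did not appear under the other 12 alternatives. In that fit the spread comes from the cKO-labelled pair alone, and 48.8% of all tested genes were called.

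Hopx encodes an atypical homeodomain protein that does not bind DNA itself and acts with serum response factor and histone deacetylases. In human cortex it marks basal radial glia, and in mouse it is known from progenitors of the dentate gyrus. Hopx (ENSMUSG00000059325.14; chromosome 5, 77086988 to 77115121) had 81 reads (5.24 TPM) in cKO-labelled replicate 4 and 414 reads (24.7 TPM) in replicate 5, against 560 reads (28.9 TPM) in control replicate 8 and 1222 reads (72.7 TPM) in control replicate 9. The low value of cKO-labelled replicate 4 and the high value of control replicate 9 both weighed on the difference. The cKO-labelled replicate 5 had 4.72 times the level of replicate 4. On the log2 scale it differed by -0.22 from control replicate 8 and by -1.52 from control replicate 9. The gene fell (limma adjusted p = 2.15e-05), with a log2 fold change of -1.89 ± 0.37 (SE). Without cKO-labelled replicate 4 the value was -0.87 and without control replicate 9 it was -1.24, and the call ended in both fits (adjusted p = 1 and 0.327), where the 13 alternatives spanned 9.44e-06 to 1. It also ended after removal of the GC trend (-1.55, adjusted p = 0.116) and when unfiltered (0.284), while without cKO-labelled replicate 5 the value was -2.91.

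Aldoc encodes aldolase C, the brain form of a glycolytic enzyme and a marker of astrocytes. Aldoc (ENSMUSG00000017390.15; chromosome 11, 78322968 to 78327781) had cKO-labelled levels of 65.1 and 219 TPM and control levels of 429 and 281 TPM. As with Hopx, the lowest level was in cKO-labelled replicate 4, and replicate 5 had 3.36 times as much and lay closer to control replicate 9 than to replicate 4. The gene fell (limma adjusted p = 0.000467), with a log2 fold change of -1.53 ± 0.35 (SE). That was -0.66 without cKO-labelled replicate 4 and -2.40 without cKO-labelled replicate 5. The call ended without cKO-labelled replicate 4 or control replicate 8 or 9 (adjusted p = 1, 0.0926 and 0.0881) and also after removal of the GC trend (0.0869) and when unfiltered (0.278), with folds of -1.54 and -1.53 that hardly moved, where the 13 alternatives spanned 0.000289 to 1.

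Because Hopx and Aldoc moved alike across the cKO-labelled pair, the 250 bases before their annotated starts are shown, from RefSeq on GRCm38.p6. Hopx has 2 entries, both on the minus strand: Hopx upstream start at chr5:77115124-77115373 and Hopx downstream start at chr5:77095268-77095517. For Aldoc the first of 2 entries is shown, on the plus strand at chr11:78322823-78323072. It runs past the M21 start of the gene at 78322968, so its last bases lie inside the M21 gene span. The Hopx window before the downstream start lies wholly inside the M21 span of Hopx. Capitals mark matches, on either strand, to the CCAAT box, the GC box (GGGCGG), the TATA box (TATAAA), the core of the hypoxia response element (ACGTG), the core of the RBPJ motif of Notch signalling (TGGGAA) and the octamer of POU factors (ATGCAAAT).
Hopx upstream start: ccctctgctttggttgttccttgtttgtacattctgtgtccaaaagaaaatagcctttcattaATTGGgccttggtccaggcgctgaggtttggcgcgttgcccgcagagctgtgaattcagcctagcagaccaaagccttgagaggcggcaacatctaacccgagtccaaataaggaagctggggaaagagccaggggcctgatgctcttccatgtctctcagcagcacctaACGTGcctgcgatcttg
Hopx downstream start: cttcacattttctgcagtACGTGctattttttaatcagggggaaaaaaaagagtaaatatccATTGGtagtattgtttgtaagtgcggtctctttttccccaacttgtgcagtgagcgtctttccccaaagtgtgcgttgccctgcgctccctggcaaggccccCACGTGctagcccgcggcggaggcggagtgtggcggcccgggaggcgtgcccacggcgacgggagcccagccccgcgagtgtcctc
Aldoc: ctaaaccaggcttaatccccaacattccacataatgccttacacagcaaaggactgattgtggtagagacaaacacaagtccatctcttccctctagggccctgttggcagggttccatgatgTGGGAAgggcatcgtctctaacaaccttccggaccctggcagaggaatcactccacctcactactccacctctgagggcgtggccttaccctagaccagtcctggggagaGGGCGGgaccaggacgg
Both Hopx windows hold CCAAT on the reverse strand and ACGTG, which appears 3 times before the downstream start, where the matches on the forward and reverse strands overlap in a palindrome. The Aldoc window shown holds the RBPJ core and the GC box, the latter inside the M21 gene span. The Aldoc entry not shown, from chr11:78323948, holds the RBPJ core alone. Among 32851 promoter windows of the same length, 33.8% hold the CCAAT box, 32.7% the GC box, 21.6% the RBPJ core, 16.6% the hypoxia core, 12.4% the TATA box and 1.6% the octamer, on either strand. A match describes letters, not a bound site.

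Sparcl1 encodes hevin, a secreted matrix protein that astrocytes use to promote synapse formation and that vascular cells make as well. Sparcl1 (ENSMUSG00000029309.7; chromosome 5, 104079111 to 104113733) had cKO-labelled levels of 16.3 and 16.0 TPM (489 and 520 reads) and control levels of 40.9 and 56.3 TPM (1535 and 1832 reads). The cKO-labelled pair was nearly level, and both controls lay well above it. Control levels averaged 3.0 times the cKO-labelled ones, and the gene fell by 1.51 ± 0.36 (SE) on the log2 scale (limma adjusted p = 0.00122). The fold change stayed between -1.74 and -1.29 whichever library was left out, and was -1.27 after removal of the GC trend (adjusted p = 0.00437). The call ended without either cKO-labelled library (adjusted p = 0.845 and 0.555) and when unfiltered (0.0854), where the 13 alternatives spanned 0.000985 to 0.845.

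Aldh1l1 encodes a cytosolic enzyme of folate metabolism, 10-formyltetrahydrofolate dehydrogenase, and is widely used to mark astrocytes. Aldh1l1 (ENSMUSG00000030088.15; chromosome 6, 90486427 to 90600203) had cKO-labelled levels of 18.3 and 21.1 TPM (842 and 1053 reads) and control levels of 4.11 and 6.15 TPM (237 and 308 reads). It was the one gene of the 10 that rose, and both cKO-labelled libraries lay far above both controls. Mean TPM was 3.84 times the control mean, a log2 fold change of 1.77 ± 0.39 (SE) with a limma adjusted p of 0.00025. The fold change lay between 1.53 and 2.02 with any library left out, and at 1.59 after removal of the GC trend (adjusted p = 0.0143). The call ended without cKO-labelled replicate 4 or 5 (adjusted p = 0.31 and 0.355) and when unfiltered (0.09), where the 13 alternatives spanned 2.44e-06 to 0.355. In the 2 fits without a cKO-labelled library few genes were called at all, 176 and 269, since the spread then comes from the control pair alone and the lone cKO-labelled library is taken to vary like it.

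The RefSeq window before the Aldh1l1 start, at chr6:90550543-90550792 on the plus strand of GRCm38.p6, lies inside the M21 gene span and is shown because this gene moved opposite to the other 3. Capitals mark matches to the same motifs.
Aldh1l1: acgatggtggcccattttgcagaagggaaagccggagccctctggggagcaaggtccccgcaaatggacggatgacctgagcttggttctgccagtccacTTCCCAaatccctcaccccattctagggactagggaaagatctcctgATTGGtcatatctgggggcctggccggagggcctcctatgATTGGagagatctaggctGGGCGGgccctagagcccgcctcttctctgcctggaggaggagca
It holds CCAAT on the reverse strand at 2 places, the GC box once and the RBPJ core on the reverse strand once.

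**Figure D2:**
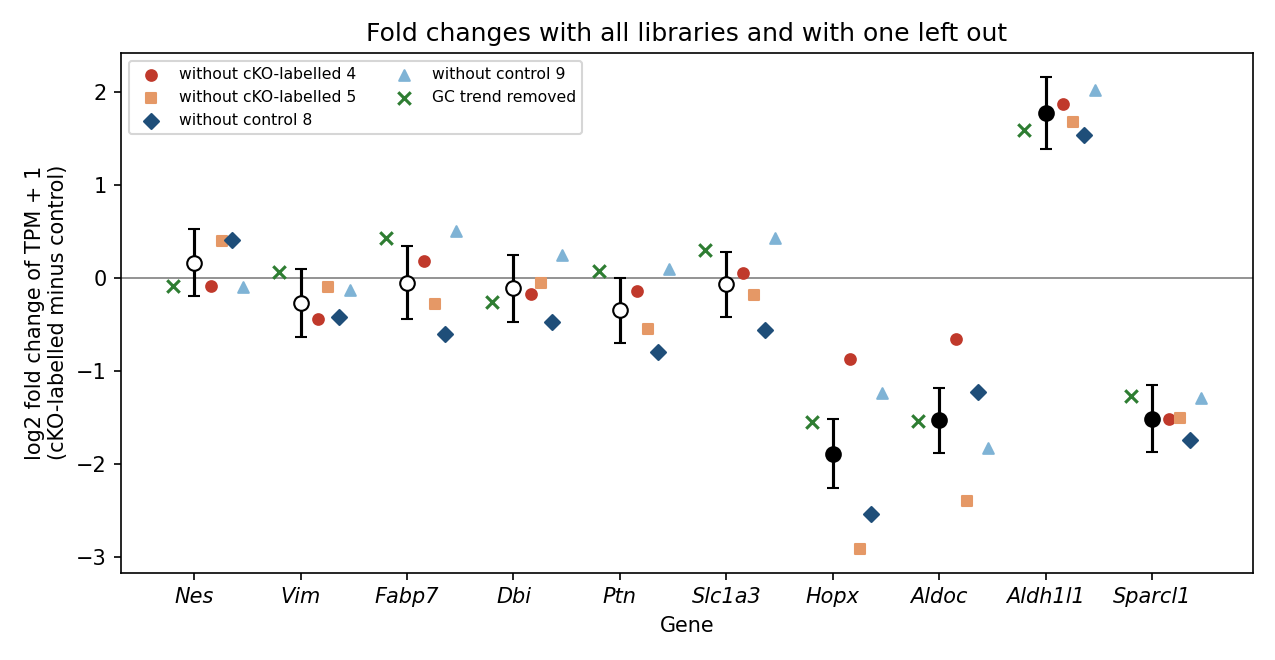
Log2 fold change of TPM + 1, cKO-labelled minus control, for each gene: circles with bars are limma estimates ± SE from all 4 libraries (filled where adjusted p is under 0.05), coloured symbols leave out 1 library, and crosses follow removal of the GC trend. Aldh1l1 stays between 1.53 and 2.02 and Sparcl1 between -1.74 and -1.29 when 1 library is left out, while Hopx spans -2.91 to -0.87 and Aldoc -2.40 to -0.66.

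The 2 groups differed in how far their libraries lay apart. For 8 of the 10 genes control replicate 9 was above control replicate 8, and it was the highest library for 7. Between the controls the log2 difference was 1.30 for Hopx, 1.10 for Fabp7, 0.99 for Slc1a3 and 0.90 for Ptn, genes with a GC content of 42.6% to 46.4%, and -0.50 for Nes at 55.5%. Over all tested genes the median of that difference went from 0.75 in the lowest of 5 GC groups (median 41.3%) to -0.58 in the highest (median 57.9%). Hopx, Fabp7, Slc1a3 and Ptn lay above this trend, Hopx at 1.30 beside 0.56 in the GC group with a median of 46.0%. Dbi and Aldh1l1 lay above it too, with 0.71 and 0.49 at a GC content of 53.9% and 54.4%. Vim and Aldoc lay below it, with 0.29 and -0.61 at 46.5% and 51.9%. Within the cKO-labelled pair the 2 wide differences were those of Hopx (2.04) and Aldoc (1.73), replicate 5 minus replicate 4, while the other 8 genes differed by at most 0.49 in either direction.

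**Figure D3:**
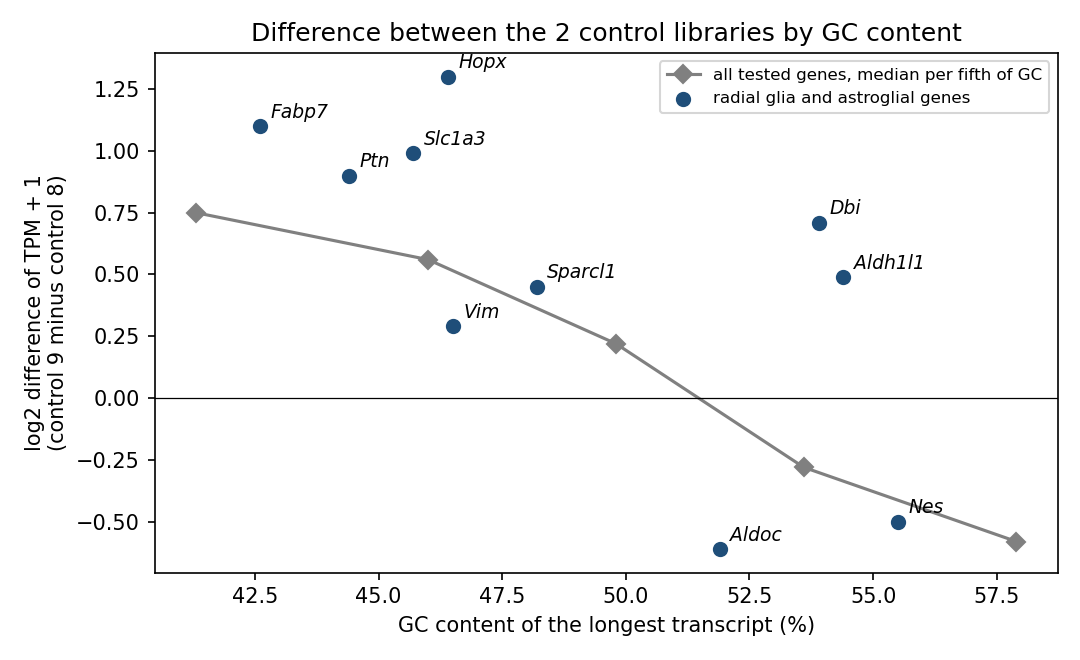
Log2 difference of TPM + 1 between the 2 control libraries (replicate 9 minus replicate 8) against the GC content of each gene's longest transcript; points are the 10 genes and the grey line is the median of all tested genes in 5 groups of equal size by GC. Fabp7, Ptn, Slc1a3 and Hopx lie at low GC and above the line, and Nes lies at high GC near it.

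Of 21 radial glia regulators, which include transcription factors and receptors, 3 fell, none rose and 18 did not pass, beside 5.24% lower and 2.9% higher over all tested genes. Their median log2 fold change was -0.06. The fallen genes were Emx2 (-1.41, limma adjusted p = 0.00158), Hes1 (-1.10, 0.0273) and Lhx2 (-1.09, 0.0297). Emx2 and Lhx2 encode homeodomain factors of the dorsal telencephalon, and Hes1 a repressor driven by Notch. All 3 calls ended without cKO-labelled replicate 4 or 5, and those of Hes1 and Lhx2 after median-of-ratios scaling, where they stood at -0.94 and -0.92. The neural stem cell factor Sox2 was at 197 and 157 TPM against 149 and 242 TPM, and Pax6 at 22.5 and 33.8 TPM against 36.6 and 58.7 TPM (log2 fold change -0.11 and -0.73, limma adjusted p = 0.865 and 0.202). The abundant Tead2 and Id4 stood at 0.18 and -0.83, neither past the test.

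Astrocyte genes went both ways. Of 25 on the list 21 were tested, of which 3 rose, 6 fell and 12 did not pass. Over all tested genes 2.9% were higher and 5.24% lower. The median log2 fold change of the list was -0.34, beside -0.16 for all tested genes. Bcan, which encodes the matrix proteoglycan brevican, fell from 26.5 and 20.3 TPM in controls to 0.845 and 2.68 TPM (-3.22, limma adjusted p = 3.81e-14). The connexin genes Gja1 and Gjb6 fell as well (limma adjusted p = 7.49e-08 and 5.53e-10). Gjb6 had 2 reads (0.0734 TPM) in cKO-labelled replicate 4 and 0 in replicate 5, while the controls had 169 reads (4.95 TPM) and 98 reads (3.31 TPM). Its log2 fold change of -2.29 depends on the pseudocount and was -4.98 with a pseudocount of 0.1. Gja1 was at 8.5 and 11.1 TPM against 41.8 and 62.9 TPM, with a log2 fold change of -2.29 (-2.39 with a pseudocount of 0.1) and a call that ended on leaving out cKO-labelled replicate 4 (-2.11). The lipid carrier genes Apoe and Clu and the gene Ndrg2 also fell, at -1.03, -1.26 and -1.05 (limma adjusted p = 0.0388, 0.0158 and 0.0346), calls that ended without either cKO-labelled library. Ndrg2 was at -0.40 without cKO-labelled replicate 4 and at -1.69 without replicate 5, and Apoe at -0.50 without control replicate 8. The calls of Apoe and Ndrg2 also ended after median-of-ratios scaling (-0.87 and -0.88, limma adjusted p = 0.129 for each). That of Apoe ended at a mean TPM of at least 5 and that of Ndrg2 after removal of the GC trend (limma adjusted p = 0.0525 and 0.0863). The Clu call held in each of these settings.

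The risen astrocyte genes were Acsbg1, an acyl-CoA synthetase gene, the metallothionein gene Mt3 and the membrane protein gene Mlc1, at 1.28, 1.23 and 1.00 (limma adjusted p = 0.0112, 0.0114 and 0.0472). Acsbg1 was at 36.2 and 40.6 TPM against 12.3 and 18.8 TPM, and Mt3 at 560 and 467 TPM against 270 and 176 TPM. All 3 calls ended without cKO-labelled replicate 4 or 5. Those of Acsbg1 and Mt3 also ended after removal of the GC trend, with Mt3 then at 0.72. The Mlc1 call, near the threshold, ended with a pseudocount of 0.1 or a mean TPM of at least 5 (limma adjusted p = 0.0506 and 0.0631). It ended too with quantile normalization, robust empirical Bayes or no intensity trend (limma adjusted p = 0.0716, 0.0551 and 0.0587). Levels differed widely within the list. Gfap reached at most 0.0642 TPM, S100b at most 0.106 TPM and Aqp4 at most 1.01 TPM, and S100b was listed at 0 in both cKO-labelled libraries. Others of the same list were well detected, with Glul at 132 to 149 TPM, Atp1b2 at 15.6 to 25.0 TPM and Slc1a2 at 9.05 to 15.8 TPM over the 4 libraries, and none of these passed. Among the 10 basal radial glia genes, known mainly from human cortex, 8 were tested, 1 rose and none fell (median -0.06). The riser was Acsbg1, which is on both lists, and the receptor phosphatase gene Ptprz1 stood at 0.90 (adjusted p = 0.0883).

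**Figure D4:**
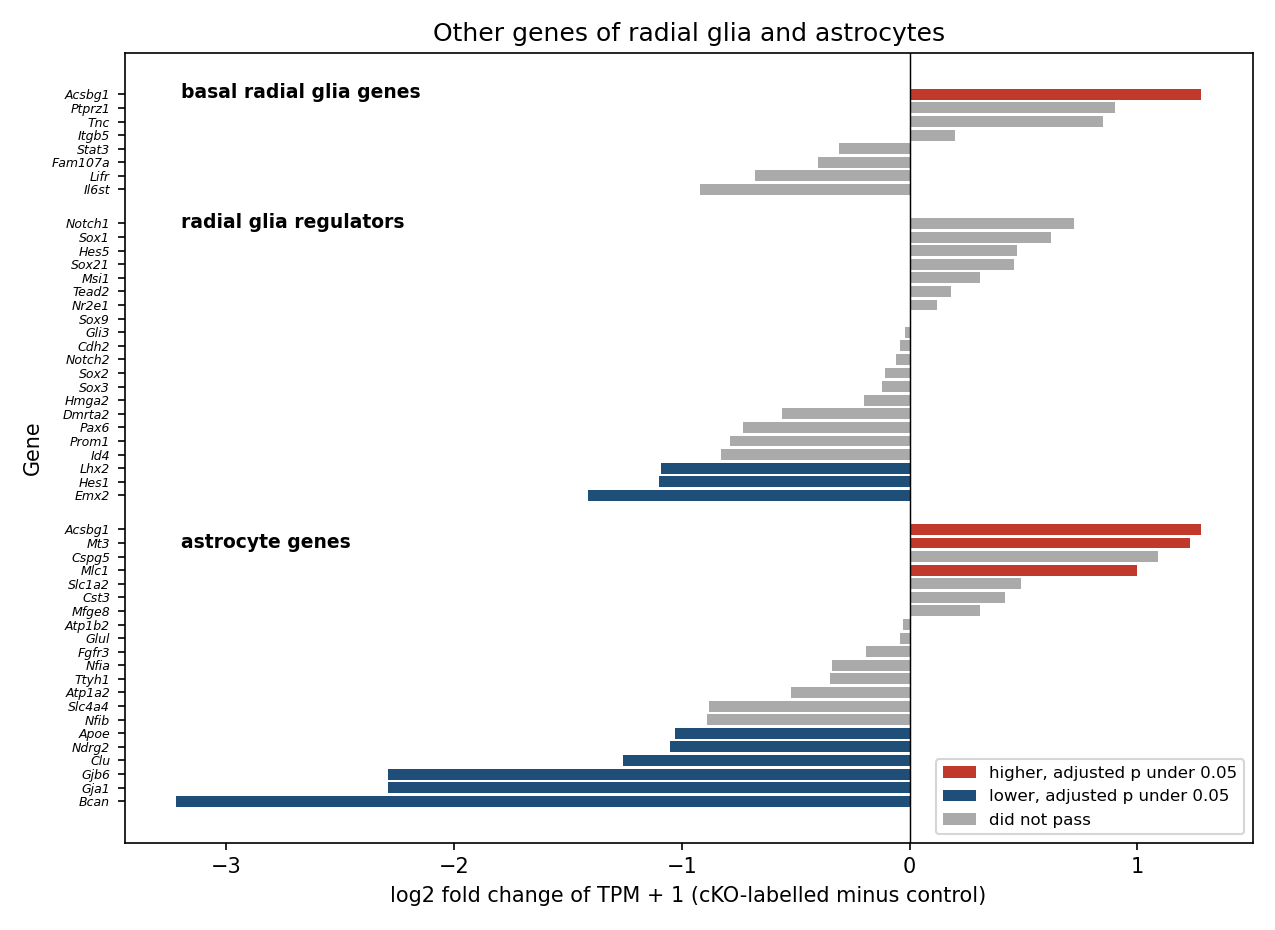
Log2 fold change of TPM + 1, cKO-labelled minus control, of the tested genes of 3 lists (astrocyte genes, radial glia regulators and basal radial glia genes); bars are coloured where the limma adjusted p is under 0.05. At the pseudocount of 1 plotted, Bcan lies at -3.22, Gjb6 and Gja1 at -2.29 and Acsbg1 at 1.28; with 0.1, Gjb6 (-4.98) passes Bcan (-3.85).

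The relatives and partners of the 10 genes are set against the 8.14% of all tested genes that were called. Among other intermediate filament genes, 5 of 8 were tested. Ina, a neuronal filament gene, rose (383 and 281 TPM against 154 and 115 TPM; 1.30, limma adjusted p = 0.00502), and Prph, which encodes peripherin of peripheral and brainstem neurons, fell (0.147 and 1.09 TPM against 9.05 and 6.95 TPM; -2.53, adjusted p = 2.95e-10). Nefm was at 0.66 and did not pass. Of 10 lipid and acyl-CoA binding protein genes 7 were tested and 2 rose: Fabp3 at 1.44 and Acbd4 at 1.41 (limma adjusted p = 0.00236 and 0.00726). Acbd4 was at 0.84 without control replicate 9, and its call ended after removal of the GC trend (1.01, limma adjusted p = 0.0542). The Fabp7 relative Fabp5 was at 401 and 368 TPM against 427 and 534 TPM (-0.31, limma adjusted p = 0.608).

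None of the 5 tested relatives of Slc1a3 passed in limma, and 1 had an unadjusted p under 0.05. The neutral amino acid transporter genes Slc1a4 and Slc1a5 were at 0.59 and -0.72 (limma adjusted p = 0.29 and 0.214). Aldoa, the ubiquitous aldolase gene, was at 572 and 495 TPM (cKO-labelled) and 555 and 258 TPM (control). It had a log2 fold change of 0.49 against -1.53 for Aldoc, a difference that was not tested, and turned to -0.06 without control replicate 9. Of 10 folate enzyme genes none passed beside Aldh1l1 (4 had an unadjusted p under 0.05), with the abundant Shmt2 at 0.48 and Mthfd1 at -0.57.

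For pleiotrophin, 1 of 7 partner genes rose: the heparan sulfate receptor gene Sdc3 was at 208 and 171 TPM against 110 and 57.5 TPM (1.24, limma adjusted p = 0.00771). Mdk, which encodes the pleiotrophin relative midkine, was at 950 and 992 TPM against 1293 and 967 TPM (-0.20, adjusted p = 0.771), and Ncl was at -0.90 (adjusted p = 0.0866). In the SPARC family of Sparcl1, with 5 of 7 tested, Spock2 rose (1.09, adjusted p = 0.0341) and Fstl1 fell (-1.42, adjusted p = 0.00168). Sparc was at 144 and 87.5 TPM against 207 and 164 TPM (-0.71, adjusted p = 0.195). The HOPX partner genes Srf and Hdac2 were at 0.48 and -0.38 and did not pass, and both turned sign after removal of the GC trend. The calls of Ina, Fabp3, Acbd4, Sdc3, Spock2 and Fstl1 ended without cKO-labelled replicate 4 or 5. With no TPM filter every call in these related lists ended except those of Bcan, Gjb6 and Gja1.

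Markers of other tissues were also compared between the groups. The 15 markers of the cortical hem and choroid plexus, at the medial edge of the cortex, summed to 13.6 and 19.2 TPM (cKO-labelled) against 2172 and 2403 TPM (control), and all 14 tested fell. Meningeal and mesenchymal markers summed to 69.5 and 60.0 TPM against 598 and 355 TPM, and 12 of 13 fell. In each of these lists 1 marker was listed at 0 in a cKO-labelled library. Ganglionic eminence markers summed to 708 and 337 TPM against 71.2 and 210 TPM, and all 13 rose. Their sum was highest in cKO-labelled replicate 4, the library with the lowest Hopx and Aldoc. Between the controls the sum was higher in replicate 9 than in replicate 8. There Hopx was also higher (72.7 against 28.9 TPM), while Aldoc was lower (281 against 429 TPM). Endothelial and pericyte markers summed to 152 and 129 TPM against 210 and 146 TPM, with none of 12 called in limma and 3 at an unadjusted p under 0.05. The part of these tissues in the levels of Hopx, Aldoc, Sparcl1, Aldh1l1 and the astrocyte genes was not tested.

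Markers of the progeny of radial glia stood as follows. Projection neuron markers summed to 7273 and 6161 TPM (cKO-labelled) against 4376 and 3352 TPM (control), with 1 of 12 higher. Most of that sum was Tubb3, at 1.11 (limma adjusted p = 0.0954). Intermediate progenitor markers summed to 1722 and 2079 TPM against 1128 and 1089 TPM, with 3 of 8 higher, among them Gadd45g at 1.89 and Mfng at 1.17, calls that ended without either cKO-labelled library. Gadd45g alone was at 610 and 867 TPM (cKO-labelled) against 174 and 220 TPM (control). The 5 intermediate progenitor markers that did not pass were Eomes (-0.21), Neurog2 (0.04), Btg2 (0.08), Elavl4 (-0.32) and Neurog1 (0.84). Of 10 microglia and macrophage markers 3 fell (Mrc1 at -2.39, Pf4 at -2.72 and Lyz2 at -1.95), and all 10 log2 fold changes were negative. The abundant C1qa and C1qb stood at -0.09 and -0.06 and turned positive after median-of-ratios scaling. Summed over the 10 radial glia and astroglial genes, the level was 3195 and 3497 TPM (cKO-labelled) against 3235 and 4614 TPM (control), so those sums overlapped.

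Annotation of the 10 genes gave no shared NMD feature. GENCODE M21 lists a transcript of the nonsense-mediated decay type for 2 of them, Dbi and Aldh1l1, 1 of 7 transcripts in each, and for 28.0% of 12688 tested protein-coding genes. A gene-level TPM does not separate these transcripts. Exons of Hopx overlap the antisense gene Hopxos over 412 bases, 27.2% of its exon length, and Hopxos was at 0.06 to 0.49 TPM. Whether counting used the strand is not given in the sources used here, so reads in that stretch cannot be assigned between them. For Aldh1l1 the 2 overlapping gene models were at 0 in every library.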

How the data were processed

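Bulk RNA-seq of E13.5 mouse cortex was analysed in 4 libraries, 2 per group. Per the labels' protocols, DNase-treated total RNA was made into stranded libraries; per the submitters' processing notes, reads were aligned with STAR to mm10. The authors deposited 1 table of TPM values. For the gene counter, strand setting and annotation release, the sources used here give nothing. Read numbers were recovered by multiplying each TPM by merged GENCODE M21 exon length, which left whole multiples of a library's step (tolerance 0.05 reads) for 100.0% of values above 0; 349 genes had no such length. Of the gene IDs 40227 matched M21 with their version, and 27 symbols turned into dates were restored.

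A fold change is the cKO-labelled mean of log2(TPM + 1) less the control mean; for low genes this scale understates it. Testing used genes averaging 1 TPM or more, in limma 3.58.1 under R 4.3.3 (empirical Bayes, intensity trend, two-sided) and Benjamini-Hochberg adjustment over 15107 genes, called under 0.05. The prior degrees of freedom were infinite, so standard errors and intervals reflect the pooled trend, not a gene's own replicates. The test was tried on simulated data with known changes. Those values were drawn independently with the spread of the fitted trend. The trial therefore cannot address differences that follow GC content or a gene's own spread. Alternatives were other pseudocounts, filters, scalings and moderation, removal of a lowess trend on GC content, and leaving out each library. The members, lists and named-gene rule were chosen with earlier results of these data known. The rule named all 10 members, Upf2 and the 2 most abundant genes per marker list. From each related list it named up to 4 called genes of smallest p and up to 2 of the most abundant. Outside it, 6 genes (Mlc1, Apoe, Clu, Ndrg2, Pax6 and Sox2) were chosen after their values were seen. So were genes given with their level alone (Gfap, S100b, Aqp4, Glul, Atp1b2, Slc1a2 and Hopxos). The markers Eomes, Neurog1, Neurog2, Btg2 and Elavl4, which did not pass, and Mrc1, Pf4 and Lyz2, which fell, also lay outside the rule. These markers were not followed through the alternatives.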

Additional observations from a re-analysis of the deposited data

How the results depend on the processing

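No paired analysis was possible because the groups share no replicate number. Of 804 combinations of a named gene and an alternative (62 genes, 13 alternatives), 637 kept direction and side of the threshold, 95 lost a call, 31 gained one and 41 turned sign. Each of Aldh1l1, Aldoc, Hopx and Sparcl1 kept its sign in all 13. The cause of the changes was not tested, except that a filter changes the genes tested and a left-out library the samples.

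The number of these 10 genes called (4) was 0 with no filter on low TPM and 2 after GC removal, and 0 to 6 with a library left out; their median then ranged from -0.58 to 0.00. Over all genes, 642 were called at a mean TPM of at least 5 (328 lower) and 178 with no filter (4 higher, 174 lower). Higher calls numbered 772 with median-of-ratios scaling (52.6% of calls against 35.6%) and 714 with quantile normalization (57.2%). With a library left out, 176 to 7379 genes were called (18 to 2830 higher, 158 to 4549 lower).

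Calls in the lists with GC removal were 2 (SLC1 transporters), 4 (SPARC family), 2 (basal radial glia), 1 (folate enzymes), 1 (lipid binding), 2 (pleiotrophin partners) and 5 (radial glia regulators). With median-of-ratios scaling they were 4 (SPARC family), 3 (basal radial glia), 1 (folate), 3 (pleiotrophin partners) and 1 (radial glia regulators). Quantile normalization gave 4 (SPARC family) and 2 (pleiotrophin partners). With no filter 3 astrocyte genes were called and 0 in the SPARC, basal radial glia, intermediate filament, lipid binding, pleiotrophin and regulator lists. A mean TPM of at least 5 gave 1 intermediate filament gene. With a library left out the calls ranged from 0 to 2 (HOPX partners), 0 to 1 (SLC1 transporters), 0 to 4 (SPARC family), 0 to 1 (aldolases), 2 to 12 (astrocyte genes), 0 to 5 (basal radial glia), 0 to 6 (folate), 1 to 2 (intermediate filaments), 0 to 4 (lipid binding), 0 to 5 (pleiotrophin partners) and 0 to 13 (regulators).

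After GC removal the sign turned for Fabp7 (0.43), Slc1a3 (0.30), Ptn (0.07), Vim (0.06), Nes (-0.09), Tead2 (-0.18), Hdac2 (0.12), Srf (-0.07), Cldn5 (-0.31) and Neurod6 (0.17). With median-of-ratios scaling it turned for Fabp7 (0.12), Slc1a3 (0.10), Dbi (0.06), Sox2 (0.05), C1qa (0.07) and C1qb (0.10), and with quantile normalization for C1qa (0.00) and C1qb (0.01). With a library left out the values ranged over -0.06 to 1.04 (Aldoa), -0.87 to 0.69 (C1qa), -0.83 to 0.72 (C1qb), -0.42 to 0.71 (Cldn5), -0.47 to 0.24 (Dbi), -0.60 to 0.50 (Fabp7), -0.77 to 0.01 (Hdac2), -0.41 to 0.01 (Mdk), -0.10 to 0.41 (Nes), -0.71 to 0.06 (Neurod6), -0.80 to 0.10 (Ptn), -0.56 to 0.43 (Slc1a3), -0.46 to 0.24 (Sox2), -0.05 to 0.42 (Tead2), -0.26 to 0.52 (Upf2).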
